A study of Proteus anguinus with 14 samples.

Results

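The pigment cell and melanin genes of the olm (Proteus anguinus), a pale, blind cave salamander, were described across its organs. They were chosen by gene symbol as TYR, TYRP1, DCT, PMEL, MLANA, MITF, OCA2, SLC45A2, SLC24A5 and MC1R, and the row with the highest mean stood for a symbol. Of these 10 symbols, 4 had a row among the 18924 assembled genes of the table: TYRP1 (TRINITY_DN2545_c0_g1), PMEL (TRINITY_DN223_c0_g1), SLC45A2 (TRINITY_DN184087_c0_g1) and SLC24A5 (TRINITY_DN8175_c0_g1), with 1 row each. No row analysed here carries the symbol TYR, DCT, MLANA, MITF, OCA2 or MC1R. Symbols came from an automatic annotation by orthology, and 10313 of the 18924 genes carried any, so that a symbol without a row says nothing about the gene in the animal.

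RNA was measured in 14 samples from 3 animals, p4, p5 and p6: 2 samples each of skin, brain, gut and heart, and 3 each of lung and liver. All animals had been washed out of caves and were kept in darkness, left uninfected as the control group of an infection experiment, and no strain, sex, age or life stage was given. The transcripts against which reads were counted were assembled from the pooled organs of p4 alone. Organs are named here by sample title, since the tissue fields swap the gut samples for the heart samples and those of liver for those of lung, and the second gut and heart samples are given to other animals in the study's sample list than in their titles. The titles of the liver and skin samples fitted the markers. Liver plasma protein genes summed to between 100826 and 204431 normalized TPM in the samples titled liver and at most 20909 elsewhere. KRT5 and TP63, keratinocyte genes, summed to 5296 and 1991 in skin and at most 194 elsewhere, in p6 brain. No list of gut or heart markers was used, so those organs rest on their titles.

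Melanin is made from tyrosine inside melanosomes, organelles of pigment cells that arise from the neural crest. Tyrosinase and its relatives TYRP1 and DCT carry out the enzymatic steps, PMEL forms the amyloid fibrils on which melanin settles, and OCA2, SLC45A2 and SLC24A5 move ions and solutes across organelle membranes. MC1R and MITF are the receptor and the transcription factor that drive these genes in mammals. Amphibian skin also holds yellow and reflecting pigment cells, which store pteridines, carotenoids and purines, and the amphibian liver is known for pigmented macrophages that contain melanin. Olms are pale in the dark and can darken when kept in light.

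Values are deposited TPM (transcript abundance normalized for length and library size), divided by a factor for each sample so that most genes are level between samples (normalized TPM). Fold changes are on the scale of log2(normalized TPM + 1), which understates the change of low genes. An organ was set against all other samples in limma, and a gene passed at an adjusted p under 0.05 and a fold change above 2. Where groups are said not to overlap, this describes the same values as the test and is no separate support. The share of all genes tested whose groups do not overlap is not given here. The number of reads behind each value cannot be recovered from TPM, the samples are bulk organs, and fewer pigment cells cannot be told apart from less RNA per cell. Samples of 1 organ come from separate animals by title, whereas organs share animals, which the main test does not take into account.

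By mean normalized TPM, PMEL was the most abundant of the 4 genes in every organ, and the only 1 of them to exceed 10 normalized TPM in any sample. In skin, its normalized TPM was 85.1 in the p4 sample and 31.6 in the p6 sample (58.4 ± 37.8, SD, n = 2), and by TPM it ranked 971st and 2068th of all 18924 genes in those samples. In the 12 other samples it was 13.1 ± 14.2 (SD) with a maximum of 48.7. The p4 skin sample was the highest of all 14, but the p6 skin sample lay below the p4 gut sample, so the skin and the rest overlapped.

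In liver, PMEL stood at 3.68, 1.09 and 4.51 normalized TPM in p4, p5 and p6 (3.09 ± 1.78, SD, n = 3), the lowest organ mean. Brain held 14.3 and 14.7 (p4, p6), and lung 11.7, 4.39 and 27.2 (p4, p5, p6). The gut samples held 48.7 (p4) and 1.67 (p5), and the heart samples 2.14 (p4) and 23.2 (p6). Samples of 1 organ thus differed by as much as 29.1-fold in gut and 10.9-fold in heart, against 77.9-fold between the highest and the lowest of all samples. The heart samples also differed in skeletal muscle markers, which summed to 2166 (p4) and 22525 (p6) normalized TPM, as did the brain samples (1536 in p4 and 18062 in p6), between which PMEL was level. The part of muscle content in the heart values was not tested. In TPM as deposited, the red blood cell genes HBE1 and ALAS2 summed to 544814, 418745 and 451760 in lung (p4, p5, p6), of 1000000 in each sample. The lung values were divided by 0.519, 0.740 and 0.603, and 9351 genes reached 1 TPM in p4 lung, against 15252 in p4 brain. The part of red blood cell content in the lung values was not tested. By organ mean the order was skin, gut, brain, lung, heart and liver, and the ranges of each neighbouring pair overlapped.

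Set against all other samples, the log2 fold change of PMEL in skin was 2.57 (SE 1.0, 95% interval 0.44 to 4.70) with a limma adjusted p of 0.306, so the gene did not pass. In liver it was -2.04 (SE 0.88, 95% interval -3.91 to -0.18, adjusted p = 0.409). Both 95% intervals leave out 0 but are not adjusted for the 16317 genes tested. Neither difference passed under any of the 27 alternative settings. In brain, gut, heart and lung the log2 fold change lay between -0.47 and 0.50, and none passed.

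**Figure D1:**
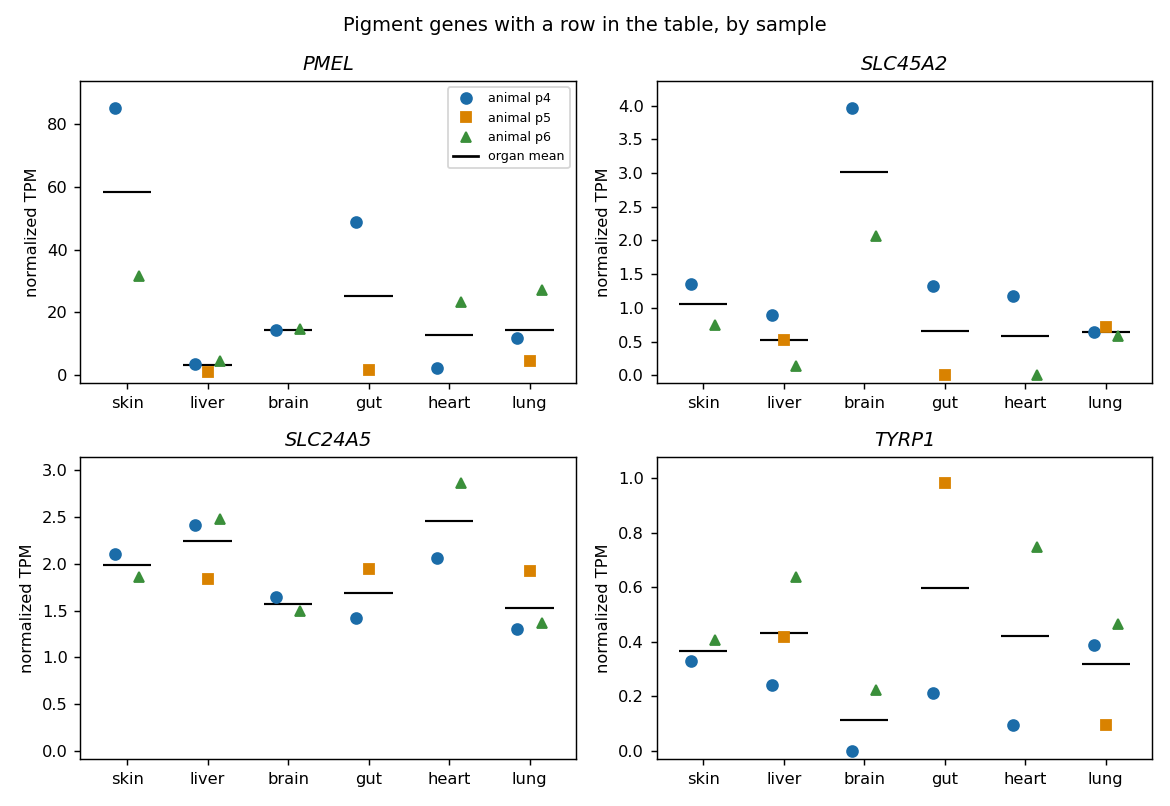
Normalized TPM of PMEL, TYRP1, SLC45A2 and SLC24A5 (vertical axes) in the samples of each organ, with symbols for the animals and a line at the organ mean. PMEL reaches 85.1 in the p4 skin sample, whereas TYRP1 stays under 1 everywhere, and SLC45A2 is highest in the brain samples.

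Between the skin samples, PMEL was higher in p4, as were 2 epidermal genes. The ratio of p4 to p6 skin was 2.69 for PMEL, 2.67 for KRT5 and 1.86 for TP63, a transcription factor of basal keratinocytes. It was 0.955 for MYH1, a skeletal muscle myosin. Among other pigment genes the ratio was 4.55 for TFAP2A, 2.54 for GPNMB, 2.09 for RAB27A and 1.80 for SLC45A2. It was 1.36 for KIT, 0.575 for ZEB2 and 0.518 for GPR143, so some lay near the ratio of PMEL and others did not. A ratio of 2 samples cannot show that genes vary together. Of 9 epidermal markers looked for, 2 had a row, and both were above 0 in both skin samples. Muscle genes summed to 62956 and 68154 normalized TPM in the skin samples (3 of 7 markers with a row, all above 0), and 5 of 10 Schwann cell and myelin markers summed to between 20.2 and 23.3 there, against 10.7 to 51.6 elsewhere. The part of epidermal and muscle content in the PMEL difference was not tested.

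TYRP1, an enzyme of the tyrosinase family that acts late in eumelanin synthesis in mice, was below 1 TPM in all 14 samples, with 0.956 TPM as its highest value, and did not enter the test. In skin it stood at 0.329 (p4) and 0.406 (p6) normalized TPM. The liver samples held 0.242, 0.420 and 0.637 (p4, p5, p6), which overlapped with skin. The highest values were in gut, with 0.982 in p5 against 0.214 in p4, and in heart, with 0.750 in p6 against 0.0952 in p4. Lung held 0.389, 0.0962 and 0.467, and brain 0.224 in p6, while the p4 brain sample was listed at 0. No organ stood apart, and every neighbouring pair in the order gut, liver, heart, skin, lung and brain overlapped. When genes of low level were kept in, the log2 fold change of TYRP1 was 0.02 in skin (limma adjusted p = 0.986) and 0.10 in liver (adjusted p = 0.908). With no value above 0.982 normalized TPM, a fold change above 2 was not possible on the scale of log2(normalized TPM + 1). TYRP1 thus could not pass, and the failure adds nothing.

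SLC45A2, a sugar and proton transporter family protein whose loss lightens pigment in mammals and fish, was higher in brain than in the other organs. The brain samples held 3.97 (p4) and 2.07 (p6) normalized TPM (3.02 ± 1.34, SD, n = 2). Every other sample was at most 1.35, so that the groups did not overlap, and the log2 fold change was 1.28 (SE 0.33, 95% interval 0.58 to 1.98, limma adjusted p = 0.0138). It was the only gene of the 3 tested to pass in brain, where 14.5% of all genes tested passed (11.2% as higher). Leaving out the p4 brain sample ended the call (0.91, adjusted p = 0.449), as did a pseudocount of 0.1 (2.37, adjusted p = 0.119) and a pseudocount of 5, where the log2 fold change was 0.49.

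In skin, SLC45A2 stood at 1.35 (p4) and 0.752 (p6) normalized TPM, and in liver at 0.896, 0.519 and 0.131 (p4, p5, p6). The lung samples held 0.641, 0.713 and 0.577. Gut and heart each had 1 sample above 1, both from p4 (1.32 and 1.18), and the p5 gut and p6 heart samples were listed at 0. The log2 fold change was 0.18 in skin (SE 0.47, 95% interval -0.81 to 1.17, limma adjusted p = 0.935) and -0.38 in liver (SE 0.39, adjusted p = 0.810). Its order was brain, skin, gut, lung, heart and liver, and brain against skin was the only neighbouring pair whose ranges were apart. In 5 organs, skin, liver, brain, gut and heart, the p4 sample was the highest for SLC45A2, a pattern noticed after the values were seen that 6.38% of all genes tested showed. In brain, KRT5 and TP63 summed to 114 (p4) and 194 (p6) normalized TPM, above every organ but skin. RLBP1 and LRAT, the 2 of 5 pigment epithelium markers with a row, summed to 11.1 and 8.31 there. Their sums were 23.7 and 9.48 in skin (p4, p6) and 10.8 and 12.1 in gut (p4, p5). The part of such tissue content in the SLC45A2 values was not tested.

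SLC24A5, a potassium-dependent sodium and calcium exchanger that sets pigment level in zebrafish and humans, was nearly level by normalized TPM. Its normalized TPM was 2.10 and 1.86 in skin (p4, p6) and 2.42, 1.84 and 2.48 in liver (p4, p5, p6). Brain held 1.65 and 1.49, gut 1.43 (p4) and 1.94 (p5), heart 2.07 (p4) and 2.86 (p6), and lung 1.30, 1.93 and 1.36. The highest sample was 2.20-fold above the lowest, and every pair of neighbours in the order heart, liver, skin, gut, brain and lung overlapped. The log2 fold change was 0.06 in skin (95% interval -0.45 to 0.57, limma adjusted p = 0.959) and 0.21 in liver (adjusted p = 0.787), which does not show equal levels, and in liver it turned to -0.15 when TPM were taken as deposited.

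Over the 3 genes tested, none passed in skin, where 2.01% of all genes passed, or in liver, where 2.35% did. At an unadjusted p under 0.05, limma gave 1 gene higher in skin and 1 lower in liver, PMEL in both, and 10.6% and 10.5% of all genes tested were under that p in skin and in liver, in either direction. None passed in gut, heart or lung, with 1.93%, 0.735% and 0.864% of all genes passing and none of the 3 at an unadjusted p under 0.05. In the test of any variation over the 6 organs, 34.2% of all genes passed and none of the 3 did, with limma adjusted p of 0.186 for PMEL, 0.118 for SLC45A2 and 0.523 for SLC24A5. All 3 passed that test when TPM were taken as deposited, and SLC45A2 passed with the animal as a replicate block (limma adjusted p = 0.0400). The share of all genes passing it under those settings is not given here, so these passes are no result about the pigment genes. Whether PMEL and SLC45A2 passed that test also changed when a single gut sample was left out.

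**Figure D2:**
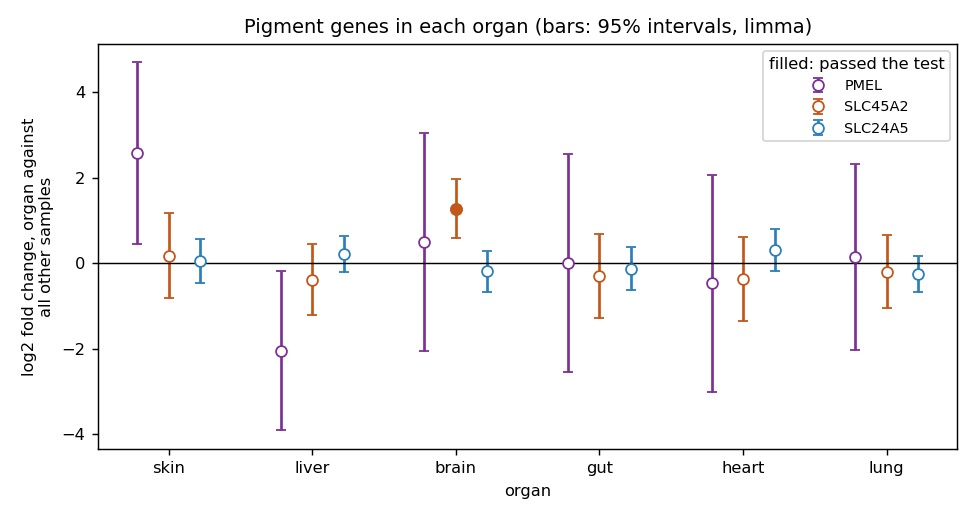
Log2 fold change of PMEL, SLC45A2 and SLC24A5 in each organ against all other samples (vertical axis), with 95% intervals from limma and filled points for a difference that passed. The 1 filled point is SLC45A2 in brain at 1.28, and the widest intervals belong to PMEL.

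Skin and liver were then set against each other, since skin holds pigment cells and the amphibian liver holds pigmented macrophages. They also had the highest and the lowest organ mean of PMEL, which its adjusted p does not take into account. PMEL was higher in skin, with a log2 fold change of 3.81 (SE 1.14, 95% interval 1.33 to 6.29, limma adjusted p = 0.0494), and the lowest skin sample (31.6) lay above the highest liver sample (4.51). Within animals, the skin held 23.1 times the normalized TPM of the liver in p4 and 7.01 times in p6. It was the only gene of the 3 to pass, where 11.1% of all genes tested passed and 6.26% were higher in skin. The value sits at the threshold and failed in 15 of 26 alternatives, among them those without the p4 skin sample (3.11, adjusted p = 0.314), without the p6 skin sample (4.51, adjusted p = 0.105) and without the p5 liver sample (3.38, adjusted p = 0.129). The call also ended when the p4 or p6 liver sample, either brain sample or any of the 3 lung samples was left out (adjusted p from 0.0509 to 0.0884). It held with the animal as a replicate block by title (3.03, adjusted p = 0.0473) but not by the study's sample list (3.73, adjusted p = 0.0936), and the other settings that ended it were a pseudocount of 0.1, no filter on low values, and the pairs of p6 and of lung samples left out together. SLC45A2 (0.45, 95% interval -0.45 to 1.36) and SLC24A5 (-0.12, 95% interval -0.67 to 0.44) did not pass.

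A further 4 lists held other genes of pigment cells, 70 symbols in all, of which 40 had a row and 34 were tested. Among melanocyte regulators, 8 of 16 symbols had a row, and SOX10, PAX3, EDNRB, KITLG, EDN3, ASIP, SNAI2 and TFE3 had none. None of the 7 tested passed in skin or in liver. At an unadjusted p under 0.05, 1 was higher and 1 lower in skin and 2 were lower in liver, where 10.6% and 10.5% of all genes tested were under that p, and 2.01% and 2.35% passed. The median log2 fold change was 0.16 in skin and -0.44 in liver, against -0.07 and -0.06 over all genes tested.

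Set directly against liver, skin was higher in 2 of these 7 regulators and lower in none, where 6.26% of all genes tested were higher and 4.84% lower. KIT, the stem cell factor receptor that melanoblasts need, stood at 30.9 and 22.7 normalized TPM in skin and 4.40, 7.33 and 9.79 in liver (log2 fold change 1.81, SE 0.36, limma adjusted p = 0.00531), although gut held more, 49.2 and 45.0, and the call ended without the p4 skin sample (1.60, adjusted p = 0.0708). TFAP2A, a transcription factor of neural crest and epidermis, stood at 13.3 and 2.92 in skin and at most 1.51 in liver (1.74, SE 0.46, adjusted p = 0.0283), a call that ended when the p4 skin sample (0.81, adjusted p = 0.347), the p4 liver sample (1.73, adjusted p = 0.0710) or the p6 liver sample (1.68, adjusted p = 0.0781) was left out, and in 3 of the other alternatives (a pseudocount of 5, the replicate block by the study's sample list, and brain and heart of p6 left out together). POMC, the precursor of melanocyte-stimulating hormone, held 14.6 and 10.5 in skin and 2.66 to 5.85 in liver and missed the threshold (1.46, SE 0.47, adjusted p = 0.0656). Its highest level was in heart, at 15.2 to 21.9 normalized TPM, above every other sample, but it did not pass there (1.40, limma adjusted p = 0.384). In TPM as deposited, its mean was 24.4 ± 10.7 (SD, n = 2) in heart and 17.4 ± 13.6 (SD, n = 2) in brain. FOXD3, LEF1, ERBB3 and ZEB2 did not pass, and FOXD3, a neural crest factor, was at most 1.41 in any sample.

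Melanosome assembly and transport was the longest list, with 19 of 33 symbols present and 16 tested. In skin, 1 gene was higher and none lower, where 1.94% of all genes tested were higher. That gene, RAB27A, the small GTPase that ties melanosomes to the actin motor, held 157 (p4) and 74.9 (p6) normalized TPM in skin and 24.0 ± 8.49 (SD, n = 12) elsewhere with a maximum of 37.5, so that the groups did not overlap. Its log2 fold change was 2.21 (SE 0.43, limma adjusted p = 0.00982), and it did not pass without the p4 skin sample (1.69, adjusted p = 0.438) or with TPM as deposited (adjusted p = 0.162). RAB27A also serves secretion in many other cells, and its ratio of p4 to p6 skin was 2.09, beside 2.67 for KRT5.

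SYTL2, an effector of RAB27A, stood at 56.7 and 47.6 normalized TPM in skin against 0.935 to 3.0 in liver (log2 fold change 4.19, SE 0.55, limma adjusted p = 0.00031). Its highest level was in heart, at 697 (p4) and 225 (p6), where it passed (5.82, SE 1.03, adjusted p = 0.00934). MLPH and MYO5A, which with RAB27A carry melanosomes along actin, did not pass in skin, in liver or between them. The list's median log2 fold change in skin was -0.14, against -0.07 over all genes tested.

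In liver, 3 melanosome genes were higher and none lower, where 2.29% of all genes tested were higher. GPNMB, a relative of PMEL found in melanosomes and also in macrophages, held 3377, 8742 and 4666 normalized TPM in p4, p5 and p6 (5595 ± 2801, SD, n = 3). Elsewhere it was 213 ± 425 (SD, n = 11), with 1233 in p5 lung, 879 in p6 lung and 9.50 in p4 lung. The groups did not overlap, and the log2 fold change was 7.01 (SE 1.40, limma adjusted p = 0.0104). It did not pass when the p4, p5 or p6 liver sample was left out (limma adjusted p = 0.0560, 0.0699 and 0.0629). With lung of p5 and p6 left out together, its log2 fold change was 8.07. Those samples were the highest outside liver, and the setting was added after the values were seen. The larger value is thus built in and is no support for the call.

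The other genes higher in liver were GPR143 and MFSD12. GPR143, a melanosomal receptor that is mutated in human ocular albinism, held 18.9, 57.4 and 23.0 normalized TPM in liver (p4, p5, p6) and at most 8.38 elsewhere (log2 fold change 2.56, SE 0.50, limma adjusted p = 0.00917). It did not pass without the p5 liver sample (2.10, adjusted p = 0.0918) or with TPM as deposited (adjusted p = 0.209). MFSD12, which brings cysteine into melanosomes and lysosomes, held 48.3, 20.5 and 49.6 in liver and 8.55 ± 2.92 (SD, n = 11) elsewhere (2.05, SE 0.34, adjusted p = 0.00279), and passed in all 27 alternatives. Of the 3 genes, 1 passed when the p5 liver sample was left out. For GPR143 and MFSD12 the lowest liver sample lay above the highest of the others, which describes the same values as the test and is no separate support. The list's median log2 fold change in liver was 0.06, against -0.06 over all genes tested.

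PMEL and GPNMB, relatives in sequence, were thus placed differently. GPNMB over PMEL was 918, 8002 and 1035 in the liver samples of p4, p5 and p6. In skin the ratio was 0.656 (p4) and 0.694 (p6), so that both skin samples held more PMEL than GPNMB. The p4 lung sample stood at 0.809, but those of p5 and p6 at 281 and 32.3. The ratio also varied within gut (0.374 and 24.7) and heart (19.3 and 1.22), and in brain it was 0.189 and 0.444. Directly against liver, skin was lower in GPNMB by a log2 fold change of -7.16 (SE 1.51, limma adjusted p = 0.00722), with 55.8 and 21.9 normalized TPM in skin.

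**Figure D3:**
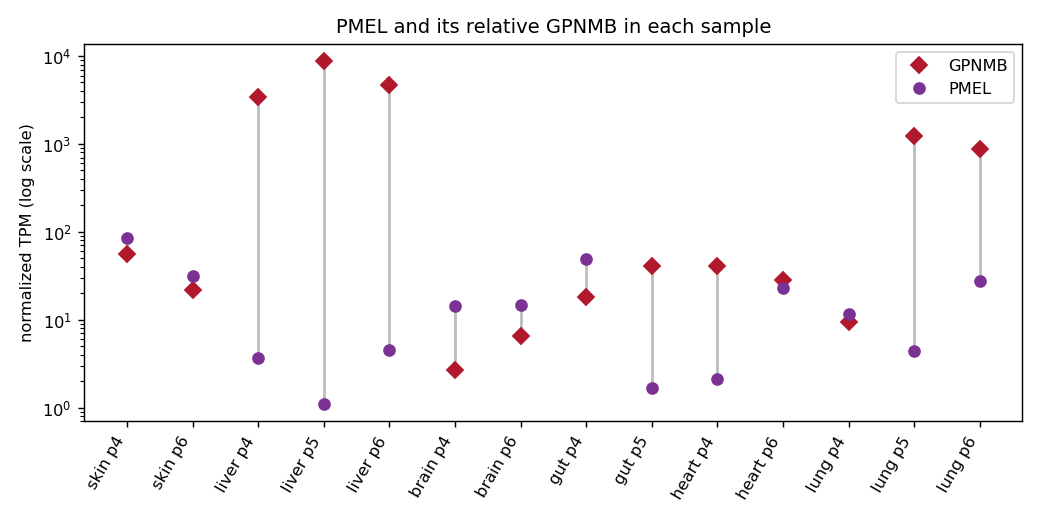
Normalized TPM of PMEL (circles) and GPNMB (diamonds) in each of the 14 samples, on a log axis, with a line joining the pair of a sample. The diamonds lie far above the circles in the liver samples (3377 to 8742 against 1.09 to 4.51) and in lung of p5 and p6, and below them in both skin samples.

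By normalized TPM, the sum of macrophage markers was highest in liver too. Of 11 looked for, 5 had a row (CSF1R, C1QA, MRC1, CTSS and TYROBP), all above 0 in every liver and skin sample. Their sum was 112, 351 and 103 normalized TPM in liver (p4, p5, p6), 41.0 to 53.8 in skin and 21.4 to 76.8 over all samples other than liver, with 65.3 in p5 lung, 54.0 in p6 lung and 21.4 in p4 lung. In TPM as deposited, liver did not stand apart: the sum was 84.8, 270 and 75.4 there (p4, p5, p6) and 164 and 125 in brain (p4, p6). In liver, 2 of the 5 passed as higher, where 2.29% of all genes tested did: CSF1R, the receptor that macrophages depend on (log2 fold change 1.62, limma adjusted p = 0.0219), and TYROBP, a signalling adaptor of myeloid cells (3.11, adjusted p = 0.0216). C1QA, a complement subunit made by macrophages (2.12, adjusted p = 0.372), MRC1, the mannose receptor (0.59, adjusted p = 0.458), and CTSS, a lysosomal protease (-0.45, adjusted p = 0.708), did not pass, and the mean of C1QA was higher in brain (37.7) than in liver (28.9). Liver plasma protein genes also summed to 20909 in p5 lung and 15586 in p6 lung, against 427 in p4 lung. The part of macrophage content or liver RNA in the GPNMB and GPR143 values was not tested.

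Between skin and liver, 6 of the 16 melanosome genes passed, 2 higher in skin (RAB27A and SYTL2) and 4 lower (GPNMB, GPR143, CD63 and MFSD12), where 6.26% and 4.84% of all genes tested did. CD63, a tetraspanin of late endosomes and melanosomes, held 677 and 533 normalized TPM in skin and 1199 to 1437 in liver (log2 fold change -1.17, SE 0.25, limma adjusted p = 0.00901), and 1294 and 1788 in gut. Leaving out the p6 skin sample ended the calls of GPNMB (-6.50, adjusted p = 0.0801), CD63 (-0.99, adjusted p = 0.110) and MFSD12 (-1.78, adjusted p = 0.0600), and CD63 did not pass with TPM as deposited (-0.67, adjusted p = 0.167). GPR143 (-2.17, adjusted p = 0.0421) failed in 11 of 26 alternatives, among them those without the p4 skin sample (-1.76, adjusted p = 0.294) and without the p6 skin sample (-2.56, adjusted p = 0.0915). The median of the list was -0.19, against -0.01 over all genes tested. HPS3 and BLOC1S6, parts of complexes that sort cargo to melanosomes, did not pass here or in either organ.

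The pteridine and purine list holds enzymes behind the pigments of yellow and reflecting cells, which also serve other cells. It also holds LTK, a receptor tyrosine kinase, and TFEC, a transcription factor. Of its 16 symbols, 11 had a row and 10 were tested. None passed in skin or in liver. At an unadjusted p under 0.05, none of the 10 was under it in skin and 6 were higher in liver, LTK among them, against 10.6% and 10.5% of all genes tested in either direction. The median log2 fold change was -0.45 in skin and 1.36 in liver, against -0.07 and -0.06 over all genes tested. TFEC, among the 2 largest in skin, had a log2 fold change of -0.00099 there (limma adjusted p = 0.999) and 0.13 in liver (adjusted p = 0.868). When liver was set against the mean of the other 5 organs, 5 of the 10 passed as higher. Then 1407 of the 16317 genes tested passed in either direction, against 383 in the main test, and the number that passed as higher is not given here.

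Directly compared, skin was lower than liver in 4 of these 10 genes and higher in none, where 4.84% of all genes tested were lower and 6.26% higher. SPR, which completes tetrahydrobiopterin synthesis, held 167 and 100.1 normalized TPM in skin and 526 to 669 in liver (log2 fold change -2.18, SE 0.40, limma adjusted p = 0.00297). XDH, which oxidizes purines and also pterins, held 6.59 and 5.01 in skin and 18.9 to 57.5 in liver (-2.34, SE 0.59, adjusted p = 0.0208). PFAS (-1.82, adjusted p = 0.00597) and PAICS (-1.30, adjusted p = 0.0378), enzymes of purine synthesis, made up the rest, and PAICS failed in 11 of 26 alternatives, among them those without the p4 skin sample (adjusted p = 0.231) and without the p6 skin sample (adjusted p = 0.119). ATIC, the last enzyme of that route, missed the threshold (-1.32, adjusted p = 0.0507). Gut held more SPR than liver, at 1225 and 1212, and the gut mean was also above the liver mean for PTS, XDH, GART, PFAS and ATIC. In gut, 5 of the 10 genes were higher and 1, LTK, was lower at an unadjusted p under 0.05 (10.6% of all genes tested, in either direction). GART, an enzyme of purine synthesis, passed there (19.2 in p4 and 16.1 in p5, log2 fold change 1.46, SE 0.33, limma adjusted p = 0.0315). Leaving out the p6 skin sample ended the call of SPR (-1.81, adjusted p = 0.0538) and of PFAS (-1.33, adjusted p = 0.104), and that of XDH ended without either skin sample, without the p4 or the p5 liver sample and with TPM as deposited (adjusted p from 0.0533 to 0.147).

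Of 5 carotenoid symbols, 2 had a row. CD36, a scavenger receptor that takes up fatty acids and carotenoids, was at most 0.594 normalized TPM outside the gut, skin included (0.124 and 0.115). In gut it held 41.4 (p4) and 13.8 (p5), with a log2 fold change of 4.39 (SE 0.29). Only the gut samples reached 1 TPM, so CD36 entered the test through them alone. Its call in gut follows in part from that filter and is no separate support. BCO1, the enzyme that cleaves beta-carotene, was not tested and reached 1.82 in 1 gut sample.

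**Figure D4:**
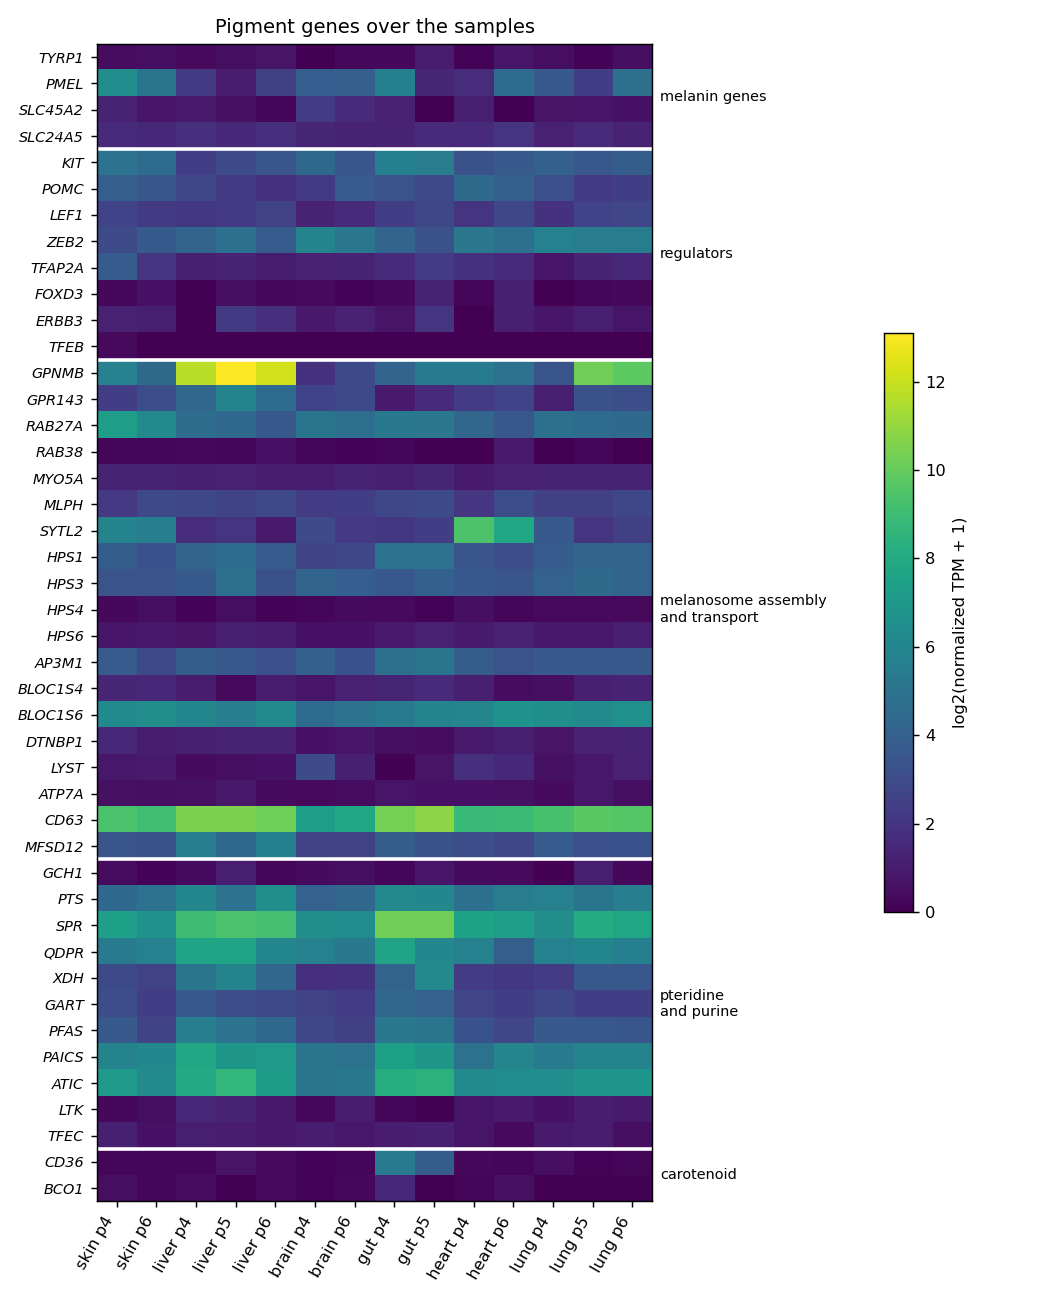
Levels of the 44 pigment genes with a row (rows, in 5 blocks by list) in the 14 samples (columns), coloured by log2(normalized TPM + 1). TYRP1, SLC45A2 and SLC24A5 stay dark, GPNMB is brightest in the liver samples and next in lung of p5 and p6, and the row of RAB27A is brightest in skin.

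**Figure D5:**
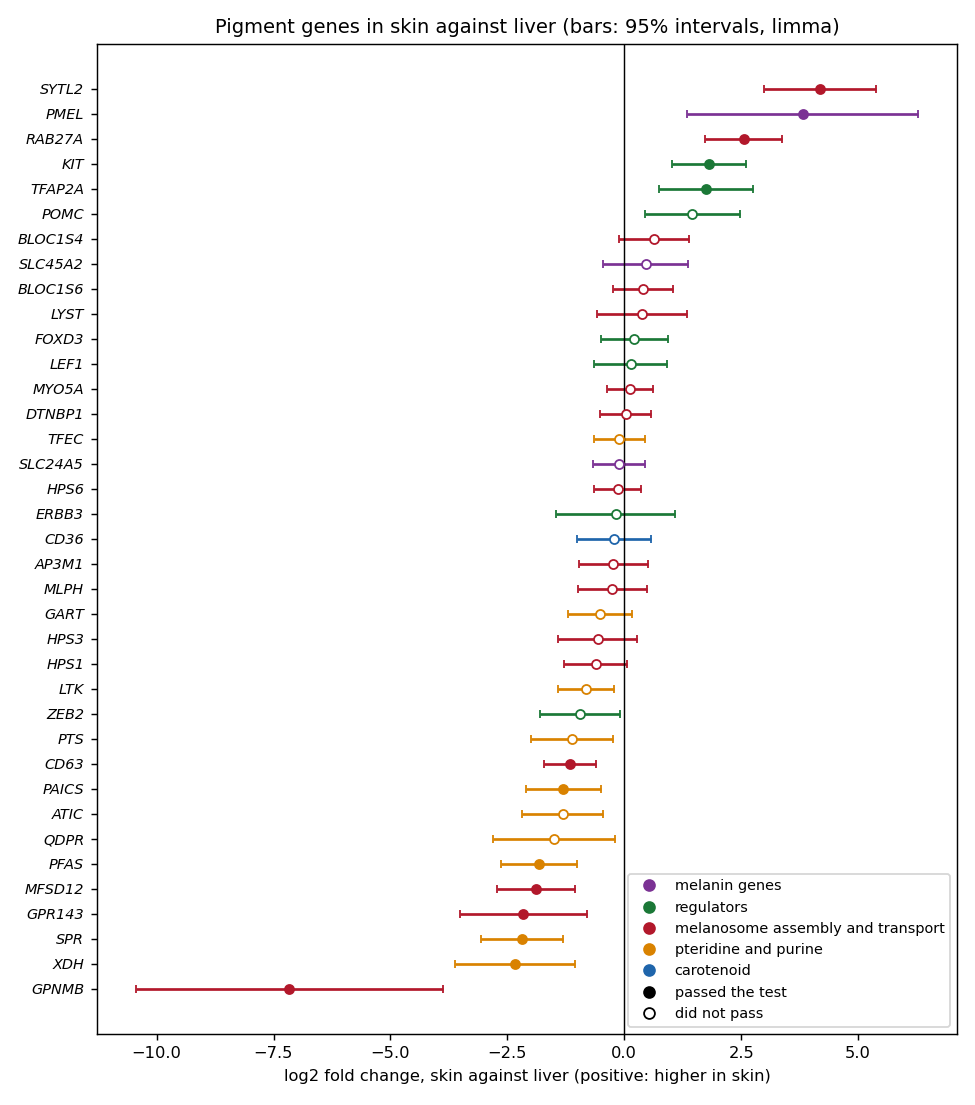
Log2 fold change of the 37 tested pigment genes in skin against liver (horizontal axis, positive where skin is higher) with 95% intervals from limma, coloured by list, and filled where the difference passed. SYTL2, PMEL, RAB27A, KIT and TFAP2A are filled on the side of skin, and GPNMB lies farthest on the side of liver at -7.16.

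The genes most like each melanin gene were named by Pearson's r over the 14 samples on log2(normalized TPM + 1), as a description, since the samples share animals and organs. For PMEL they were FCRL5 (r = 0.871), DDX4 (0.836) and MAP1LC3C (0.807). For SLC45A2 they were ATP6AP1 (0.963), RNF39 (0.947) and MIEF1 (0.921). SLC24A5 was most like NUAK2 (0.820), KIAA2026 (0.793) and MEIKIN (0.787). None of these 9 genes belongs to the pigment lists. Some were near the floor, with MEIKIN at most 1.56 and FCRL5 at most 2.15 normalized TPM in any sample. As the highest r among many genes over 14 samples, they show no shared control.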

How the data were processed

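Reads of 14 organ samples were trimmed by the authors with cutadapt and Trimmomatic, aligned with BWA to 1 transcript, the longest, per annotated gene in their assembly, and counted with featureCounts. The deposited values are TPM by the authors for 18924 genes. How TPM were computed from the counts is not given in the sources used here. No count model was fitted, and the reads behind a value cannot be recovered from TPM.

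TPM were divided in each sample by its median ratio to the geometric mean, taken over the 13067 genes with no zero, and log2(value + 1) was used. Genes with at least 1 TPM in at least 2 samples were tested (16317) with limma 3.58.1 in R 4.3.3, with a trend in the variance and Benjamini-Hochberg adjustment over all of them. Organs were compared with all other samples, and skin with liver in a model of the 6 organs. The script was tested on simulated data.

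The genes, the lists and the tests were chosen with earlier results of these data known. Genes of a list are named where they had the 3 highest means in skin, the 2 largest or smallest log2 fold changes in skin or the 2 largest in liver, or passed in either organ. Genes that passed between skin and liver are named too. Some others, such as MLPH, MYO5A, GART, PTS and LTK, are named outside this rule. Genes with like patterns are the 3 with the highest r. Where several rows share a symbol, as for XDH and ERBB3, reads may be split between them.

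Same-numbered samples come from 1 animal by title, so the animal was used as a replicate block in an alternative. Deviations from the organ means had a mean correlation of 0.156 over 28 pairs of the same animal and -0.083 over 53 pairs of different animals. In an organ with 2 samples the deviations mirror each other, so the means are tied and are not separate results. Other alternatives were a pseudocount of 0.1 or 5, other filters, quantile normalization, TPM as deposited, 6 separate organs in the model, all rows of a symbol summed, and each sample left out in turn.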

Additional observations from a re-analysis of the deposited data

How the results depend on the processing

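Among the 3 melanin genes tested, the count that passed was 0 in skin, liver, gut, heart and lung under every alternative run (27 for each organ). In brain it fell from 1 to 0 with a pseudocount of 0.1 and with a pseudocount of 5, and ranged from 0 to 1 when single samples were left out. In skin against liver it fell from 1 to 0 with a pseudocount of 0.1, without the filter, and with the replicate block by the study's sample list, and ranged from 0 to 1 when single samples were left out. Both settings added after the data were seen, brain and heart of p6 left out together and lung of p5 and p6 left out together, also gave 0. Over the 6 organs it rose from 0 to 3 with TPM as deposited and to 1 with the replicate block by title and by the sample list, and ranged from 0 to 2 with single samples left out. The log2 fold change of SLC45A2 in skin ranged from -0.032 to 0.39 with single samples left out, and that of SLC24A5 in liver was -0.15 with TPM as deposited. For PMEL between skin and liver the adjusted p was 0.0473 with the block by title and 0.0936 with the block by the sample list. The share of all genes passing over the 6 organs under these settings is not given here, and the cause of these changes was not tested.

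Taking TPM as deposited shifted the median log2 fold change of all genes by 1.03 in brain, -0.61 in lung, -0.38 in liver, 0.29 in heart and 0.35 between skin and liver, and the genes called in brain rose from 2371 to 6606 and in skin fell from 328 to 174. Without the p4 skin sample, 84 genes were called in skin. Reads per gene cannot be recovered from TPM, and differences of TYRP1 and SLC45A2 below the spread of log2(value + 1) were not detectable.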

Other observations

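Of the pigment genes outside the lists, MREG and MC5R were looked at after their values were seen. MREG encodes melanoregulin, which acts in melanosome transfer in mice, and had 2 rows. The first (TRINITY_DN46197_c0_g1) held 68.9 normalized TPM in p4 skin, 405 in p6 skin, 54.0 in the p6 heart sample and at most 5.16 in the other 11. Its log2 fold change in skin was 5.98 (SE 1.1, limma adjusted p = 0.00659), and it did not pass without the p6 skin sample (4.71, adjusted p = 0.285). Here the p6 skin sample was the higher, unlike PMEL and RAB27A, which were higher in p4. The other row (TRINITY_DN244096_c0_g1) held 69.1 and 43.4 in brain and 64.9 and 43.2 in gut. MC5R, a melanocortin receptor known from skin glands of mammals, held 3.78 and 3.06 in brain and at most 0.353 elsewhere. It was listed at 0 in every skin and liver sample (log2 fold change in brain 2.04, SE 0.17). Only the brain samples reached 1 TPM, so MC5R entered the test through them alone. Its call in brain follows in part from that filter and is no separate support. With a pseudocount of 0.1 the log2 fold change of MC5R in brain was 4.60, and with a pseudocount of 5 it was 0.73. The latter is below the fold required and was the only 1 of 23 alternatives to end the call. None of those 23 leaves out a brain sample, since MC5R then failed the filter, so the call was not tried that way.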
